A study of Mus musculus with 8 samples.

Results

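The products of 10 genes, secreted proteins of fibrous scar tissue, were examined by their transcripts: Fn1, Dcn, Lum, Lox, Postn, Tnc, Sparc, Thbs1, Bgn and Fbln2. They were picked by symbol from 54752 genes in the count tables. All 10 passed the filter on low counts that left 17136 tested genes, and all 10 reached its minimum level in every Sham library. RNA came from the right cerebral cortex of wild-type C57BL/6 mice, described in the methods as adult males of the J substrain, 3 weeks after either a sham operation (Sham, n = 4) or bilateral carotid artery stenosis (BCAS, n = 4). In BCAS a microcoil around each common carotid artery narrows the vessel and lowers blood flow to the brain, and the coil was narrower on the right, the side that was sequenced. Each library was 1 mouse, so that the spread within a group is the spread between animals. The comparison asks how chronic low blood flow changed gene expression in the cortex, and it is taken here to the genes of the scar matrix.

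A fibrous scar forms where fibroblasts and related cells of the meninges and vessel walls lay down collagen and the proteins that organise it. Fibronectin and the matricellular proteins tie cells to this matrix, small leucine-rich proteoglycans set the spacing of collagen fibrils, and lysyl oxidase cross-links them. In healthy cortex such matrix lies mostly around vessels and in the meninges, and several of the 10 genes are known to be transcribed outside fibroblasts too, Tnc by astrocytes and Sparc by glia and vessel cells among them.

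The tables held 16759364 to 21794435 counted read pairs per mouse, and expression is given as CPM, the counts scaled to library size with TMM factors. No duplicate libraries were seen, since any 2 mice of a group differed by at least 0.425 in root mean square log2 CPM. The widest such difference was 0.932, between BCAS mouse 1 and BCAS mouse 2, and the widest between Sham mice was 0.519. Sham mouse 3 held choroid plexus transcripts, with 792.5 summed CPM of 8 marker genes against 19.2 to 52.4 in the other 3 Sham mice.

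The sequence just before the transcription start is shown for 3 of the genes, Postn, Tnc and Bgn, because for these the RefSeq start lay within 5 bases of the start used for counting. RefSeq windows were at hand for 5 of the 10 genes. The letters run 5′ to 3′ on the strand of the gene, from GRCm38.p6, at chr3:54360857-54361106 on the plus strand for Postn, chr4:64047016-64047265 on the minus strand for Tnc and chrX:73483351-73483600 on the plus strand for Bgn. Capitals mark the letters TATAAA, which form a TATA box where they lie a short way before a start.
Postn: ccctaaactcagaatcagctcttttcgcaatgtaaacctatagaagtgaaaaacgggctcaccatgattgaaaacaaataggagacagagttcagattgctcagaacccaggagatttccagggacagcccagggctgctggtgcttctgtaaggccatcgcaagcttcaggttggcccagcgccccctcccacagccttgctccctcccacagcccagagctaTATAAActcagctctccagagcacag
Tnc: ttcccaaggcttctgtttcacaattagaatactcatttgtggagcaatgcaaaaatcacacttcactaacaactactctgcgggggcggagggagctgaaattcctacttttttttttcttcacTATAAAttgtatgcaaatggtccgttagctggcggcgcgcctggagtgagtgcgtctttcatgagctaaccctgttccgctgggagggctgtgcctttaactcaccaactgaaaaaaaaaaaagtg
Bgn: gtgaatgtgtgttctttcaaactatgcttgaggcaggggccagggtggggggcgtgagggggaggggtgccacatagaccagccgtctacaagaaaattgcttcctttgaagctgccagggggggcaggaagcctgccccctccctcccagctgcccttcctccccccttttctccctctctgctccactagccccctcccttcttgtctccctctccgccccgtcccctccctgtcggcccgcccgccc
TATAAA began 26 bases before the start in Postn and 126 bases before it in Tnc, and it was not found in the Bgn window. The same windows were searched on both strands for TGANTCA, the core bound by AP-1 factors, and for CATTCC, the core bound by TEAD factors, with no match in any of the 3. Of 32536 RefSeq windows of 250 bases, 12.3% held TATAAA, 6.73% held TGANTCA and 12.6% held CATTCC. These shares count a match on either strand, for TATAAA too, so they are not shares of the gene strand alone. GC content was 52% for Postn, 44.8% for Tnc and 64.4% for Bgn.

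Compared with Sham mice, all 10 genes had a higher mean level in BCAS mice, from 1.61 times the Sham mean for Fbln2 to 23.0 times for Lox. By the quasi-likelihood test of edgeR, with p adjusted over all tested genes after Benjamini and Hochberg, 8 of 10 were called higher, at an adjusted p under 0.05 and a log2 fold change above 1, while 11.0% of all tested genes were so called. None of the 10 was called lower, a call made for 1.28% of all tested genes. An adjusted p under 0.05 in the higher direction was reached by all 10, against 19.2% of all tested genes, although Lum, Postn, Tnc and Fbln2 missed it under some other methods. In 6 of 10 every BCAS mouse lay above every Sham mouse, which held for 18.5% of all tested genes. The median log2 fold change of the 10 was 2.30, and that of all tested genes was -0.01. In tissue RNA, more cells of a type and more RNA per cell cannot be told apart.

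**Figure D1:**
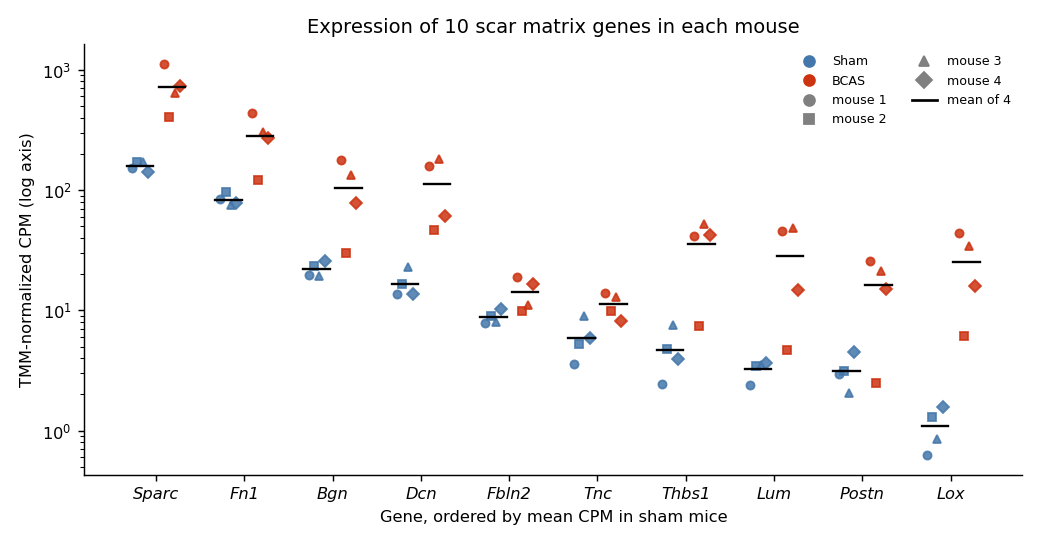
TMM-normalized CPM of the 10 genes in each mouse on a log axis, with Sham mice in blue, BCAS mice in red, 1 symbol shape per mouse number and a bar at the mean of 4. Sparc is the highest in both groups, Lox moves from about 1 CPM to a BCAS mean of 25.1, and the BCAS mouse 2 squares lie lowest in the BCAS group for 9 of the genes.

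Fibronectin, encoded by Fn1 (chr1:71585520-71653200, minus strand, mm10), is the adhesive protein on which other matrix proteins assemble. In the Sham group, mice 1 to 4 had levels of 84.0, 96.9, 74.7 and 77.9 CPM. In the BCAS group the levels, in the same order of mouse numbers as for every gene here, were 433, 122, 303 and 273 CPM. All BCAS mice were above all Sham mice, with BCAS mouse 2 the nearest to them. The mean went from 83.4 ± 9.81 CPM (SD, n = 4) to 283 ± 128 CPM, and the log2 fold change was 1.76 ± 0.32 (SE, edgeR adjusted p = 0.00625). Exon bases shared with Apol7d on the other strand made up 2.5% of Fn1.

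Thbs1 (chr2:118111876-118127133, plus strand) encodes thrombospondin 1, which binds cells and matrix and can release TGF-beta from its latent form. The Sham mice had 2.44, 4.74, 7.55 and 3.92 CPM, and the BCAS mice had 41.7, 7.42, 52.2 and 42.1 CPM. BCAS mouse 2 fell just short of Sham mouse 3, and the other BCAS mice stood far above every Sham mouse. This gave a log2 fold change of 2.94 ± 0.57 (SE, edgeR adjusted p = 0.00794). A gene on the other strand, Gm29233, shared 3.42% of the exon bases.

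Postn (chr3:54361109-54391037, plus strand) encodes periostin, a matricellular protein of healing tissue that promotes collagen cross-linking. Its levels were 2.96, 3.12, 2.06 and 4.47 CPM in Sham mice and 25.8, 2.47, 21.2 and 15.04 CPM in BCAS mice. BCAS mouse 2, with 48 read pairs on the gene, lay within the Sham range, and the other BCAS mice were well above it. Postn rose by a log2 fold change of 2.36 ± 0.59 (SE, edgeR adjusted p = 0.0198). This call was lost when Sham mouse 1 was left out (edgeR adjusted p = 0.0608), and also without number 2 (0.0579) or number 3 (0.0517) of the Sham group or without BCAS mouse 3 (0.0514), with the log2 fold change at 2.05 or more in each fit that left out 1 mouse. It was also lost with limma-voom (adjusted p = 0.120).

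Tnc (chr4:63959785-64047015, minus strand) encodes tenascin C, an anti-adhesive glycoprotein that astrocytes also make after injury. The Sham mice had 3.58, 5.24, 8.92 and 5.91 CPM and the BCAS mice had 14.1, 9.79, 12.9 and 8.12 CPM. The groups overlapped, because BCAS mouse 4 was below Sham mouse 3. The log2 fold change of 0.92 ± 0.28 (SE, edgeR adjusted p = 0.0372) did not reach 1. Without Sham mouse 3 it was 1.18 and without BCAS mouse 4 it was 1.05, both called, whereas the adjusted p was above 0.05 in 5 of the 8 fits that left out 1 mouse and reached 0.0965 without Sham mouse 2. Exon bases shared with 8030451A03Rik on the other strand made up 2.26%.

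Fbln2 (chr6:91212455-91272540, plus strand) encodes fibulin 2, a glycoprotein of basement membranes and elastic fibres, and it had the smallest difference of the 10. It was measured at 7.84, 8.92, 8.06 and 10.3 CPM in Sham mice and 19.0, 9.79, 11.2 and 16.5 CPM in BCAS mice. BCAS mouse 2 lay below Sham mouse 4, and the other BCAS mice were above every Sham mouse. Fbln2 had a log2 fold change of 0.69 ± 0.22 (SE, edgeR adjusted p = 0.0417). Of the 8 fits that left out 1 mouse, the one without BCAS mouse 2 kept an adjusted p under 0.05 (0.00675, log2 fold change 0.84), and the others gave edgeR adjusted p values of 0.0518 to 0.106.

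The 3 small leucine-rich proteoglycans of the set each rose and showed no overlap between groups. Dcn (chr10:97479609-97518143, plus strand) encodes decorin, which binds collagen fibrils and TGF-beta. Its levels were 13.8, 16.5, 22.8 and 13.7 CPM in Sham mice and 159, 46.4, 179.7 and 60.3 CPM in BCAS mice. The lowest BCAS mouse was at 2.03 times the highest Sham mouse. Decorin transcripts rose by a log2 fold change of 2.74 ± 0.45 (SE, edgeR adjusted p = 0.00437). Lum (chr10:97565128-97572703, plus strand), next to Dcn on the same chromosome, encodes lumican, which limits the width of collagen fibrils. Its Sham levels were 2.39, 3.43, 3.49 and 3.68 CPM, and its BCAS levels were 45.5, 4.69, 48.7 and 14.7 CPM. BCAS mouse 2 was at only 1.27 times the highest Sham mouse, while BCAS mice 1 and 3 were well above BCAS mouse 4. Lum had a log2 fold change of 3.13 ± 0.66 (SE, edgeR adjusted p = 0.0105), and this call was lost with limma-voom (log2 fold change 2.64, adjusted p = 0.0813).

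Bgn (chrX:73483602-73495933, plus strand) encodes biglycan, a collagen-binding proteoglycan that can also signal through Toll-like receptors when it is released. The Sham mice had 19.5, 23.5, 19.4 and 25.6 CPM, and the BCAS mice had 178, 30.1, 133 and 77.3 CPM. All BCAS mice were above all Sham mice, but BCAS mouse 2 was at only 1.17 times the highest of them. Bgn rose by a log2 fold change of 2.25 ± 0.46 (SE, edgeR adjusted p = 0.00927).

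Lox (chr18:52516069-52529867, minus strand) encodes lysyl oxidase, the enzyme that starts the cross-linking of collagen and elastin, and it had the largest change of the 10. Counts were low in Sham mice, with 11, 21, 15 and 26 read pairs or 0.625, 1.31, 0.858 and 1.57 CPM. In BCAS mice it had 1001, 118, 635 and 295 read pairs or 44.0, 6.08, 34.3 and 16.1 CPM. The groups were well apart, since even BCAS mouse 2 was at 3.87 times the highest Sham mouse. The mean went from 1.09 ± 0.427 to 25.1 ± 17.2 CPM (SD, n = 4), and the log2 fold change was 4.53 ± 0.64 (SE, edgeR adjusted p = 0.00280). When 1 mouse at a time was left out, it stayed called in all 8 fits at log2 fold changes of 4.12 to 4.87.

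Sparc (chr11:55394500-55423183, minus strand) encodes osteonectin, a collagen-binding protein that takes part in the release and assembly of procollagen. It was at 153, 171, 171 and 141 CPM in Sham mice and 1125, 404, 640.3 and 726 CPM in BCAS mice. The Sham mice were close together, and the lowest BCAS mouse was at 2.36 times the highest of them. The mean went from 159 ± 14.9 to 724 ± 300.1 CPM (SD, n = 4). The log2 fold change of 2.19 ± 0.27 (SE, edgeR adjusted p = 0.00205) had the lowest adjusted p of the 10.

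**Figure D2:**
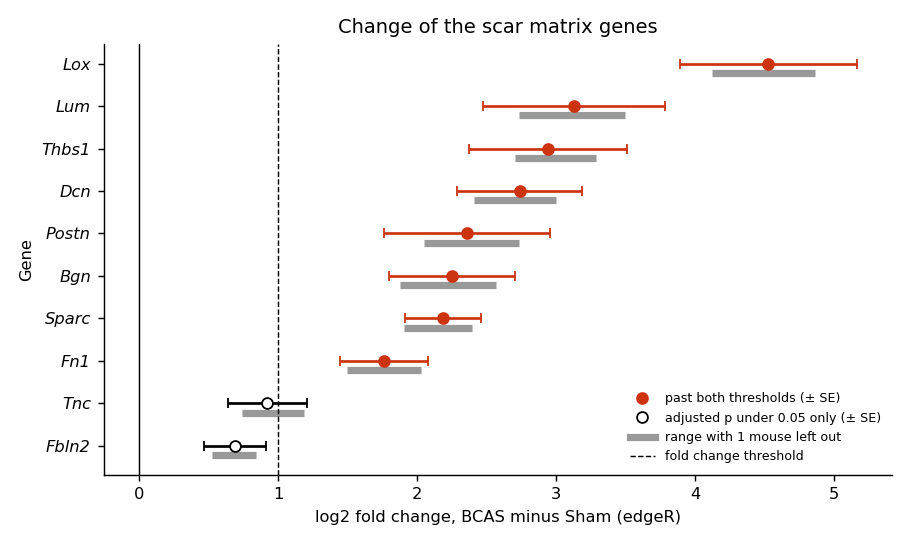
The log2 fold change of BCAS against Sham mice from edgeR for each gene, with bars of 1 standard error, filled points for genes past both thresholds and grey bars for the range when 1 mouse at a time was left out. Lox is highest at 4.53, while Tnc at 0.92 and Fbln2 at 0.69 lie under the dashed threshold of 1.

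A stricter edgeR test asked whether a change was larger than a log2 fold change of 1. Lox (adjusted p = 0.00739), Sparc (0.0109), Dcn (0.0222) and Thbs1 (0.0406) passed it. Lum (adjusted p = 0.0525), Bgn (0.0718), Fn1 (0.0923) and Postn (0.160) did not, and for Tnc and Fbln2 the adjusted p was 1.

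The BCAS mice differed among themselves in how far the matrix genes departed from the Sham mean. Over the 10 genes, the median of log2 of the CPM over the Sham mean was 3.03 in BCAS mouse 1, 0.61 in BCAS mouse 2, 2.67 in BCAS mouse 3 and 2.01 in BCAS mouse 4. The highest BCAS value was in mouse 1 for 7 genes and in mouse 3 for 3 genes, Dcn, Lum and Thbs1. The lowest was in mouse 2 for 9 genes and in mouse 4 for Tnc. In BCAS mouse 2 the same log2 ratio still reached 2.48 for Lox, 1.48 for Dcn and 1.35 for Sparc, but it was -0.35 for Postn. The coefficient of variation ranged from 24.4% to 77.6% in BCAS mice and from 9.38% to 46.0% in Sham mice. It was larger in BCAS than in Sham mice for 9 of the 10, all but Tnc. The same count was not made over all tested genes. Over those genes, any 2 BCAS mice differed by 0.449 to 0.932 in root mean square log2 CPM. Any 2 Sham mice differed by 0.425 to 0.519. Among Sham mice, Dcn, Tnc and Thbs1 were highest in mouse 3, the one with choroid plexus transcripts, whose part in these values was not tested. Without Sham mouse 3 the number of the 10 called higher was again 8, with Postn lost and Tnc gained, beside 1833 of all tested genes. Without BCAS mouse 2 the same 8 were called, beside 2408 of all tested genes.

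**Figure D3:**
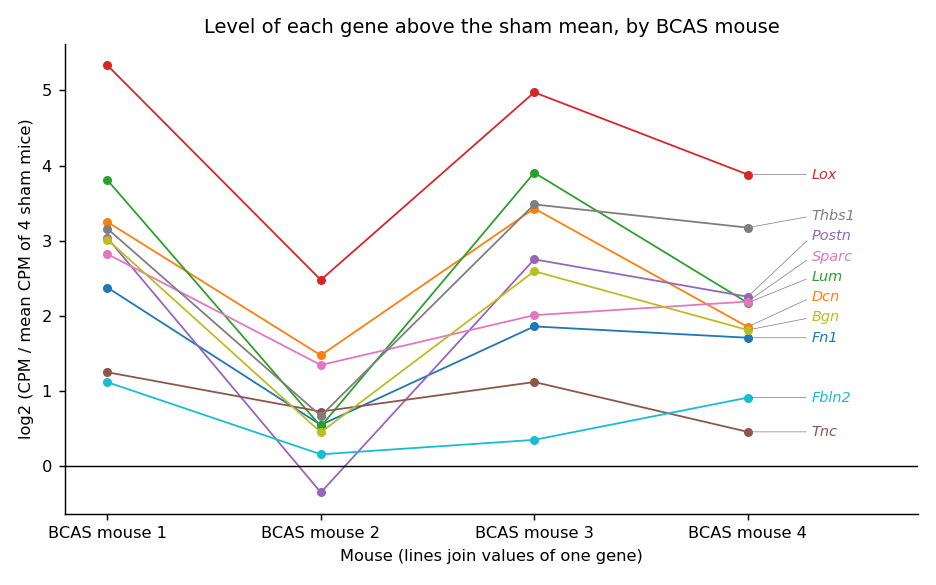
Log2 of the CPM over the mean of the 4 Sham mice for each gene, vertical axis, in the 4 BCAS mice, horizontal axis, with a line joining the values of a gene. Most lines dip at BCAS mouse 2, where Postn falls below 0, and Lox is the top line in every mouse.

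Levels were compared between genes per length, as FPKM, the CPM divided by the exon length in kilobases. Sparc was the most abundant of the 10 in both groups, at 42.0 ± 3.94 FPKM in Sham and 191 ± 79.2 FPKM in BCAS mice (SD, n = 4). It made up 69.5% of the summed FPKM of the 10 genes in Sham and 68.3% in BCAS mice. In Sham mice the mean levels ran down from Sparc to Fn1 (7.14 FPKM), Bgn (3.61), Dcn (2.86), Fbln2 (1.38), Lum (1.33), Thbs1 (0.768), Tnc (0.761), Postn (0.362) and Lox (0.227). The ranges over the mice did not overlap between Sparc and Fn1, Fn1 and Bgn, or Dcn and Fbln2, and they did between all the other neighbours in this order. In BCAS mice the order was Sparc, Fn1 (24.2 FPKM), Dcn (19.1), Bgn (17.2), Lum (11.6), Thbs1 (5.90), Lox (5.22), Fbln2 (2.22), Postn (1.86) and Tnc (1.44), and Sparc alone stood clear of its neighbour. Lox went from 0.375% to 1.87% of the sum and Lum from 2.20% to 4.14%, whereas Fbln2 went from 2.28% to 0.793% and Tnc from 1.26% to 0.515%. The summed FPKM, in order of mouse number, was 56.7, 65.1, 64.1 and 55.7 for the Sham group and 433, 137.5, 289 and 259.6 for the BCAS group.

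Paralogs of the 10 genes were listed by family, and 32 of 37 were tested. Of these, 17 were called higher and none lower, with a median log2 fold change of 1.05. The largest changes were in Tgfbi, the paralog of Postn, from 4.61 ± 0.208 to 44.8 ± 32.4 CPM (log2 fold change 3.28), in the lysyl oxidase relative Loxl1 (2.37), and in Fbln1 (2.13), a fibulin like Fbln2, at edgeR adjusted p values of 0.00540, 0.00682 and 0.00885. Loxl2, another relative of Lox, was among the 17, with 9, 15, 16 and 9 read pairs in Sham mice against 282, 22, 177 and 86 in BCAS mice. It was under the minimum of the filter in some Sham libraries and passed with its BCAS levels, so that the size of its fold change is not given. Sparcl1, the nearest relative of Sparc and an abundant astrocyte transcript, had 2108 ± 149 CPM in Sham and 2103 ± 168 CPM in BCAS mice (log2 fold change -0.00 ± 0.13, edgeR adjusted p = 0.987). Sparc and Sparcl1 thus had log2 fold changes of 2.19 and -0.00 in the same libraries, a difference that was not itself tested. Epyc, a proteoglycan of the family of Dcn and Lum, had a log2 fold change of 0.00 ± 0.27 (edgeR adjusted p = 0.990). Below the fold threshold, Tnr, the neural relative of Tnc, fell by 0.24 on the log2 scale and Spock1, a proteoglycan relative of Sparc, fell by 0.85, at edgeR adjusted p values of 0.0338 and 0.0305.

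Fibrillar collagens, the fibres that decorin, lumican and Lox act on, were called higher in 6 of 11 tested genes, with a median log2 fold change of 1.63 and none called lower. Col3a1 went from 5.71 ± 1.37 to 121 ± 83.9 CPM (log2 fold change 4.40, edgeR adjusted p = 0.00347). The others with the largest changes were Col1a1 (3.27), Col1a2 (2.77) and Col5a2 (2.44). Col5a1 and Col11a2 both had a log2 fold change of 0.42, at edgeR adjusted p values of 0.104 and 0.0380. Among 17 tested enzymes and chaperones of collagen processing, 8 were called higher and none lower, with a median log2 fold change of 0.99. These included the prolyl hydroxylase subunit gene P4ha3 (2.62), the collagen chaperone gene Serpinh1 (1.85) and the transglutaminase gene Tgm2 (1.72). Adamts14, which removes the amino-terminal propeptide, was called as well, but it had 7, 4, 2 and 3 read pairs in Sham mice against 48, 19, 40 and 38 in BCAS mice and passed the filter with its BCAS levels, so that the size of its fold change is not given either. P4ha2 (0.05) and Adamts3 (0.06) had the smallest log2 fold changes, at edgeR adjusted p values of 0.813 and 0.830.

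Receptors for the proteins of the set and for collagen were called higher in 13 of 22 tested genes and none was called lower, with a median log2 fold change of 1.32. Itga2, 1 of the 13, passed the filter with its BCAS levels. Cd44, the hyaluronan receptor that also binds matrix proteins, went from 2.65 ± 0.841 to 49.1 ± 28.9 CPM (log2 fold change 4.21, edgeR adjusted p = 0.00184). Itgb5, an integrin chain for vitronectin and periostin, went from 54.6 ± 1.02 to 402 ± 213 CPM (2.88, edgeR adjusted p = 0.00195), and Itga5, the alpha chain of the fibronectin receptor, had a log2 fold change of 2.60. Cd36, a thrombospondin receptor, had one of 2.58 with overlapping groups (edgeR adjusted p = 0.0304). Itgav, the alpha partner of Itgb5, was at 145 CPM in Sham and 142 CPM in BCAS mice (log2 fold change -0.03, edgeR adjusted p = 0.841). Cd47, another thrombospondin receptor, fell by 0.30 on the log2 scale (edgeR adjusted p = 0.0167), under the fold threshold.

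**Figure D4:**
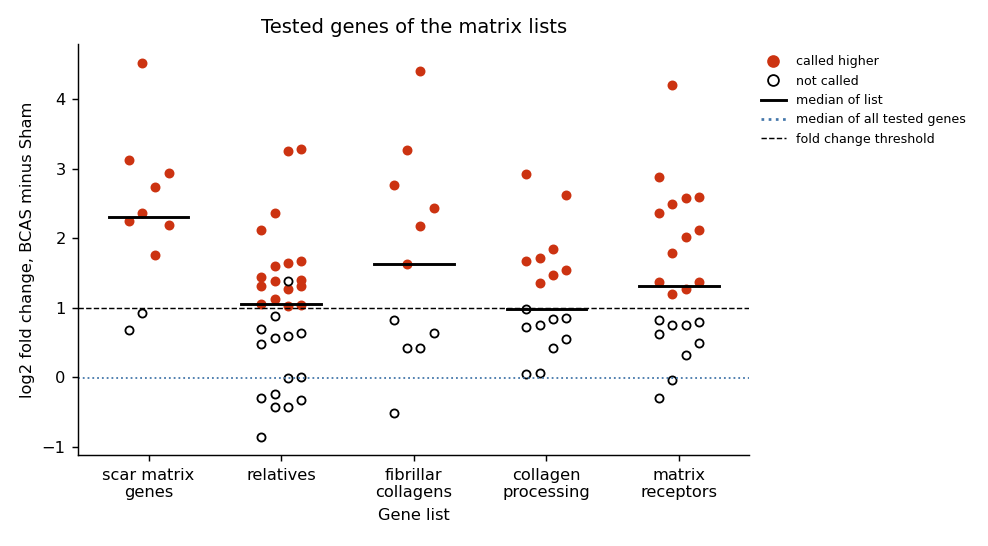
The log2 fold change of BCAS against Sham mice for each tested gene of the scar matrix set and of 4 lists of related genes, filled where called higher, with a bar at the median of the list. The medians are 2.30 for the scar matrix genes, 1.05 for their relatives, 1.63 for fibrillar collagens, 0.99 for collagen processing and 1.32 for receptors, and the dotted line marks the median of all tested genes.

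The name of fibroblast was checked against 12 fibroblast markers, of which 9 were tested. Of these 4 were called higher, the collagens Col1a1, Col1a2 and Col3a1 and, at low level, Pi16 (0.652 to 1.54 CPM), which was under the minimum of the filter in a Sham library and passed with its BCAS levels. Pdgfra (0.51) and Pdgfrb (1.00, just under the threshold) had adjusted p values of 0.0238 and 0.0127 in edgeR. Cd34 (-0.06), Twist2 (-0.37) and Fap (-0.65) did not pass the edgeR test, at adjusted p values of 0.813, 0.638 and 0.0746. Dpt and Mfap5, defining markers of connective tissue fibroblasts, were too low to test, with BCAS means of 0.453 and 0.528 CPM, and Tcf21 was at 0 in all 4 BCAS mice. The collagens thus moved with the 10 genes and the remaining fibroblast markers did so in part. The source of the transcripts was not measured, and the set is a list of matrix genes, not of cells.

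Markers of other cell types were read in the same libraries, and their part in the change of the matrix genes was not tested. The summed level of the 10 matrix genes was 288 to 335 CPM in Sham and 643 to 2085 CPM in BCAS mice. Of 10 markers of meningeal fibroblasts and their arachnoid neighbours, 6 were called higher, Aldh1a2 and Foxc1 among them (log2 fold changes 1.43 and 1.09), with 71.2 to 88.4 summed CPM in Sham and 106 to 178 in BCAS mice. None of 9 tested mural cell markers was called, though 3 had an adjusted p under 0.05 in the higher direction and the median log2 fold change was 0.68, with 286 to 350.5 summed CPM in Sham and 337 to 499 in BCAS mice. The most abundant of them were Rgs5 (log2 fold change 0.03) and Vtn (0.69). None of 10 endothelial markers was called either, with summed CPM of 339 to 450.0 in Sham and 428 to 621 in BCAS mice. Their median log2 fold change was 0.40, and 3 of them, Cdh5 (0.87), Pecam1 (0.58) and Abcb1a (0.41), had an adjusted p under 0.05 in the higher direction, whereas the most abundant, Flt1 (0.17) and Slco1a4 (0.16), did not.

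All 12 microglia and macrophage markers were called higher, with 298 to 360.0 summed CPM in Sham and 1469 to 5803 in BCAS mice, and Csf1r had a log2 fold change of 2.76. All 10 reactive astrocyte markers were called higher too, with 203 to 253 summed CPM in Sham and 1311 to 5463 in BCAS mice, led in level by Gfap (3.90) and Vim (3.53). Of these, Lcn2 and Timp1 passed the filter with their BCAS levels. Cd44 is in this astrocyte list and is also counted among the receptors above. Of 10 neuronal markers, 7 had an adjusted p under 0.05 in the lower direction, of which Snap25 was called lower (-1.07), and Camk2a had a log2 fold change of -0.75, with 12808 to 14959 summed CPM in Sham and 5316 to 11084 in BCAS mice. None of 8 oligodendrocyte markers was called, at 3880 to 6248 summed CPM in Sham and 5428 to 8419 in BCAS mice, with Mbp at a log2 fold change of 0.43. None of 5 blood markers was called, though 2 had an adjusted p under 0.05 in the higher direction, at 59.3 to 80.8 summed CPM in Sham and 94.5 to 123.7 in BCAS mice, with Hbb-bs at 0.58 and Hba-a1 at 0.41. None of 7 tested choroid plexus markers was called, with Ttr at 188 ± 339 CPM in Sham and 27.4 ± 11.8 CPM in BCAS mice. As for the sum of the matrix genes, the lowest BCAS value was in mouse 2 for every marker list but the neuronal one, which had its highest BCAS value there.

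**Figure D5:**
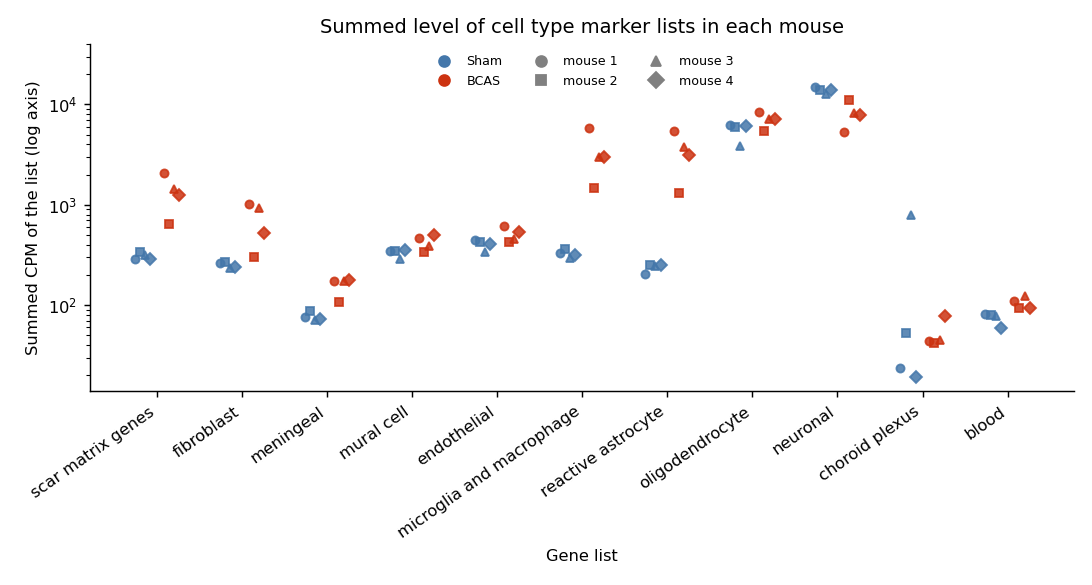
Summed CPM of the scar matrix genes and of 10 lists of cell type markers in each mouse on a log axis, with Sham mice in blue and BCAS mice in red. The microglia and macrophage and the reactive astrocyte lists separate the groups most widely, and Sham mouse 3 stands apart in the choroid plexus list at 792.5.

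The genes whose log2 CPM followed the mean of the 10 most closely over the 8 libraries were Aqp4, the water channel of astrocyte endfeet (Pearson r 0.999), Cav1, a protein of caveolae (0.998), Arhgap18 (0.997), Galnt10 (0.997) and Col3a1 (0.996). These values are descriptions, since all 8 points share the split into Sham and BCAS mice and the order of the BCAS mice. Aqp4 had a mean of 169.7 CPM in Sham and 533 CPM in BCAS mice, and its log2 fold change was 1.65. Each member was set against the mean of the other 9 in the same way, and r was 0.983 for Bgn and 0.982 for Lox at the top and 0.795 for Tnc, 0.842 for Fbln2 and 0.917 for Postn at the bottom.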

How the data were processed

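Total RNA of the right cortex was made into NEBNext Ultra libraries and sequenced as read pairs, 1 mouse per library. According to the methods and processing notes, the authors trimmed with Trim Galore, aligned to mm10 with HISAT2, sorted with SAMtools 1.9 and counted with featureCounts 1.6.3. The authors deposited raw counts per gene without normalization. The headers name featureCounts 2.0.1 and GENCODE vM20 and set no strand option, so that reads of genes that overlap on opposite strands cannot be told apart. Symbols were matched by gene ID for 54723 of 54752 genes, and coordinates are those of the deposited tables.

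Genes that passed filterByExpr (minimum count 10, minimum total 15) were tested between BCAS (n = 4) and Sham (n = 4) with edgeR 4.0.16 in R 4.3.3, using TMM factors (0.949 to 1.05), the quasi-likelihood F-test without covariates and Benjamini-Hochberg adjustment. A call needed an adjusted p under 0.05 together with a log2 fold change beyond 1 in either direction. The study used the same thresholds but tested with limma, and it also presented results from DESeq2. Each standard error is the size of the log2 fold change divided by the root of its F statistic. FPKM was computed from TMM-scaled counts and the exon lengths in the tables. Python 3.11.15 and matplotlib 3.10.9 were used for tables and figures, and the fits were tested on simulated data. Alternatives were other normalizations and filters, DESeq2 1.42.0, limma 3.58.1, a replicate block, other fold thresholds and leaving out each mouse.

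The 10 genes and all lists were chosen with earlier results of these data known. Named were all 10 genes, the 4 called genes with the largest and the 2 uncalled genes with the smallest change in each matrix list, the 2 most abundant genes of each marker list and the 5 genes most alike, except that some marker genes are not reported here. Tnr, Spock1, Itga2, Lcn2, Timp1, Cdh5, Pecam1, Abcb1a, the remaining fibroblast markers and genes that share exons were named after their values were seen. One listed symbol, Leprel1, had no match in the tables. DESeq2 1.16.1, listed in the processing notes, was not needed for the counts.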

Additional observations from a re-analysis of the deposited data

Results flagged for a closer look

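Dixon's test looked in each group of 4 mice for a mouse far from the rest, over the 10 matrix genes and the summed levels of the marker and matrix lists. It marked 7 of 50 groups, where chance gives about 1 in 20, and none of the 7 was one of the 10 matrix genes.

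BCAS mouse 2 had 106 summed CPM of meningeal markers, with 172 to 178 in the other BCAS mice, and it was also the lowest BCAS mouse for 9 of the 10 matrix genes. Sham mouse 3 stood apart in 3 lists. It had 792.5 summed CPM of choroid plexus markers against 19.2 to 52.4 in the other Sham mice, 3880 of oligodendrocyte markers against 5985 to 6248, and 286 of mural cell markers against 347.5 to 350.5. Dcn, Tnc and Thbs1 had their highest Sham value in that mouse. BCAS mouse 4 had 77.6 summed CPM of choroid plexus markers against 42.3 to 45.0 in the other BCAS mice. Sham mouse 1 had 203 summed CPM of reactive astrocyte markers against 245 to 253 in the other Sham mice. Sham mouse 4 had 59.3 summed CPM of blood markers against 77.7 to 80.8.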

How the results depend on the processing

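The log2 fold changes of the 10 matrix genes kept their direction under every alternative that was run for them. Alternatives were not run for single genes of the related and marker lists, only for the counts called in the 4 matrix lists. Of the 10 matrix genes, Fn1, Dcn, Lox, Sparc, Thbs1 and Bgn were called higher in every fit with the same fold threshold, and the number called was 8 in most of these fits. It was 9 with library size alone, where Tnc reached a log2 fold change of 1.00 and 2023 of all genes were called higher, and 6 with limma-voom, which lost Lum and Postn and called 1629 of all genes higher. Leaving out 1 mouse gave 7 to 9 of the 10 and 1532 to 2408 of all genes. A test against a log2 fold change of 1 called 4 of the 10 matrix genes. In the related lists it called 3 relatives, 6 receptors, 2 collagen processing genes and 5 fibrillar collagens. Over all genes it called 739 higher and 5 lower, against 1877 and 220 in the standard test. Of the 1877, 494 were under the minimum of the filter in at least 1 Sham library. Without a fold threshold there were 3291 higher and 2199 lower genes, 10 matrix genes and 13 collagen processing genes. Limma on log2(CPM + 1) called 145 genes lower, and leaving out 1 mouse gave 86 (without Sham mouse 1) to 559 (without BCAS mouse 2) lower genes. The causes were not tested.

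Sham and BCAS mice share the numbers 1 to 4. Over 4 pairs, the correlation of same-numbered mice was -0.10 to 0.00. Of the 4 Sham mice, 0 were best matched to their own number. No pairing by number was seen, but 4 pairs are too few to exclude it. The replicate block called 7 matrix genes, 1624 genes higher and 185 lower, with Postn at a log2 fold change of 2.07 (edgeR adjusted p = 0.0578).

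The calls of Postn and the adjusted p of Tnc and Fbln2 depended on single mice, and the groups overlapped for these genes. They depended on the method too, since Fbln2 had an adjusted p of 0.0648 with limma-voom, 0.0512 with limma on log2(CPM + 1) and 0.0666 with the replicate block, and Tnc had 0.0561 with the block. Lox, Lum and Postn rest on fewer than 100 read pairs in each Sham library.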
